A study of Xenopus laevis with 4 samples.

Results

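The retinoic acid genes described here are aldh1a2.L, cyp26a1.L, dhrs3.L, rdh13.L and rarg.S, which cover the making of retinoic acid, the removal of its precursor, its breakdown and its receptor. They were chosen by symbol, as the probe sets whose single gene symbol in the platform's probe table is one of these names. Symbols were first updated to the current RefSeq name of the same gene where it had one. The choice gave 6 probe sets for 5 genes, out of 15491 probe sets and 7531 genes with a single symbol on the array. The suffix .L or .S tells which chromosome set of Xenopus laevis carries the copy (long or short), since the genome of this frog is duplicated and many genes have a pair of similar copies called homeologs.

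Total RNA was measured in 4 tissue pieces cut from stage 10 embryos, at the start of gastrulation: a vegetal explant from the yolky pole, a dorsal marginal zone and a ventral marginal zone from opposite sides of the equatorial belt, and an animal cap from the prospective ectoderm. Each piece was hybridised to 1 array, so no value has a replicate, a standard error or a p-value. The labels name no treatment, strain or mutation and do not say how many embryos were dissected for a piece. Signals are the deposited linear intensities, scaled by the authors to a common level per array, and the number of arrays limits the precision.

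Retinoic acid is a small signalling molecule made from vitamin A. Retinol is oxidised to retinaldehyde by retinol dehydrogenases such as rdh10, and retinaldehyde is oxidised to retinoic acid by retinaldehyde dehydrogenases such as aldh1a2. Reductases such as dhrs3 turn retinaldehyde back into retinol, and cytochrome P450 enzymes of the cyp26 family break retinoic acid down. The acid binds receptors of the RAR family, which sit on DNA with RXR partners and, without ligand, recruit co-repressors such as ncor1. In vertebrate embryos the pathway is known for setting head-to-tail identity in the hindbrain and trunk.

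Marker genes were set beside the explant names. They were chosen with earlier results of these data known, so they describe the pieces and are no independent check. All 7 probe sets of the vegetal markers (sox17a, sox17b.1, gata6 and dazl), all 8 of the dorsal markers (gsc, chrd.1, nodal3.1 and admp) and all 10 of the animal cap markers (krt12.4, krt70, grhl3 and dlx3) were highest in the explant they stand for. Of the 6 ventral probe sets, 4 were highest ventrally, while ventx3.2.S and wnt8a.L were highest in the vegetal explant. These counts set no limit on signal or fold, and some leads were narrow. bambi.S had 111 ventrally and 110 vegetally, and szl.L 186 and 166. gsc.S had 2662 dorsally and 2594 vegetally, and nodal3.1.L 1626 and 1533. gata6.S was dim, at 84.3 vegetally, and several of the cap probe sets belong to krt70.S alone. Markers of one explant also had signal in others. The summed dorsal marker signal was 7501 in the vegetal explant, 15510 in the dorsal marginal zone, 391 in the ventral marginal zone and 139.9 in the animal cap. The summed animal cap marker signal was 201.7, 17350, 26460 and 45200 in the same 4 explants, and the summed ventral marker signal 5405, 851.9, 4055 and 414.8. Whether a gene has fewer expressing cells in an explant or less RNA in each cell cannot be told apart in such tissue pieces.

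Low signals were raised to a floor of 24.7. Pairs of explants were compared only at probe sets with a signal of 147 or more, the overall median, in at least 1 of the pair; this limit is called the filter below. A difference of 2-fold, which is 1 on the log2 scale, was the rule of size. In place of replicates, the scatter between the marginal zone arrays gives a sense of scale. The robust SD of the dorsal minus ventral log2 difference was computed over 5 equal groups of probe sets ordered by brightness. It was 0.45 in the dimmest group, 0.29, 0.23 and 0.19 in the next, and 0.15 in the brightest. These values hold real differences between the zones as well as noise.

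The synthesis gene aldh1a2.L was present in the vegetal explant and both marginal zones and low in the animal cap. Its brighter probe set had a signal of 835 in the vegetal explant, 1146 in the dorsal marginal zone, 557 in the ventral marginal zone and 159 in the animal cap. The dimmer probe set gave 443, 341 and 267 in the vegetal, dorsal and ventral pieces, and its cap signal of 21.2 lay under the floor. Both probe sets put the cap last and the ventral marginal zone next to last, but they differed on which of the vegetal and dorsal pieces was highest. In the vegetal explant the brighter probe set was 5.24-fold above the cap and the dimmer one at least 18.0-fold. Against the cap, the dorsal signal was 7.19-fold higher and at least 13.8-fold higher on these probe sets, and the ventral signal 3.50-fold and at least 10.8-fold higher.

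The dorsal-ventral difference of aldh1a2.L rested on 1 probe set. It was 2.06-fold higher dorsally on the brighter probe set, a log2 difference of 1.04 or 4.5 times the scatter at that brightness, and 1.28-fold higher on the dimmer one, 1.2 times the scatter. Their mean of 0.70 on the log2 scale did not reach 2-fold. Between the vegetal and the dorsal piece, the log2 differences of 0.38 and -0.46 had opposite signs, so no order between them is given.

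The breakdown gene cyp26a1.L had much the same distribution. Its signal was 371 in the vegetal explant, 430 in the dorsal marginal zone, 275 in the ventral marginal zone and 63.0 in the animal cap. The cap was far below the other pieces: the vegetal signal was 5.88-fold, the dorsal 6.81-fold and the ventral 4.37-fold higher. The log2 differences among those 3 pieces were small, at 0.64 for dorsal minus ventral (2.2 times the scatter at that brightness), 0.43 for vegetal minus ventral and -0.21 for vegetal minus dorsal, and none reached 2-fold. The vegetal and dorsal marker sums were likewise lowest in the cap, at 157.2 and 139.9, and their part in the cap difference of aldh1a2.L and cyp26a1.L was not tested.

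The homeolog cyp26a1.S was the only other copy of these genes found on the array by symbol. Its probe set had 427 in the vegetal explant, 464 in the dorsal marginal zone, 427 in the ventral marginal zone and 196 in the animal cap. The cap was again lowest, by 2.18-fold against the vegetal explant, 2.37-fold against the dorsal and 2.18-fold against the ventral marginal zone. The cap difference was thus smaller in the .S copy, with log2 vegetal minus cap values of 1.12 for cyp26a1.S and 2.56 for cyp26a1.L. Its dorsal minus ventral difference was 0.12 (0.4 times the scatter). Whether either probe set also takes up RNA of the other copy was not tested. The same holds for the probe sets of the other members and any homeologs of theirs.

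**Figure D1:**
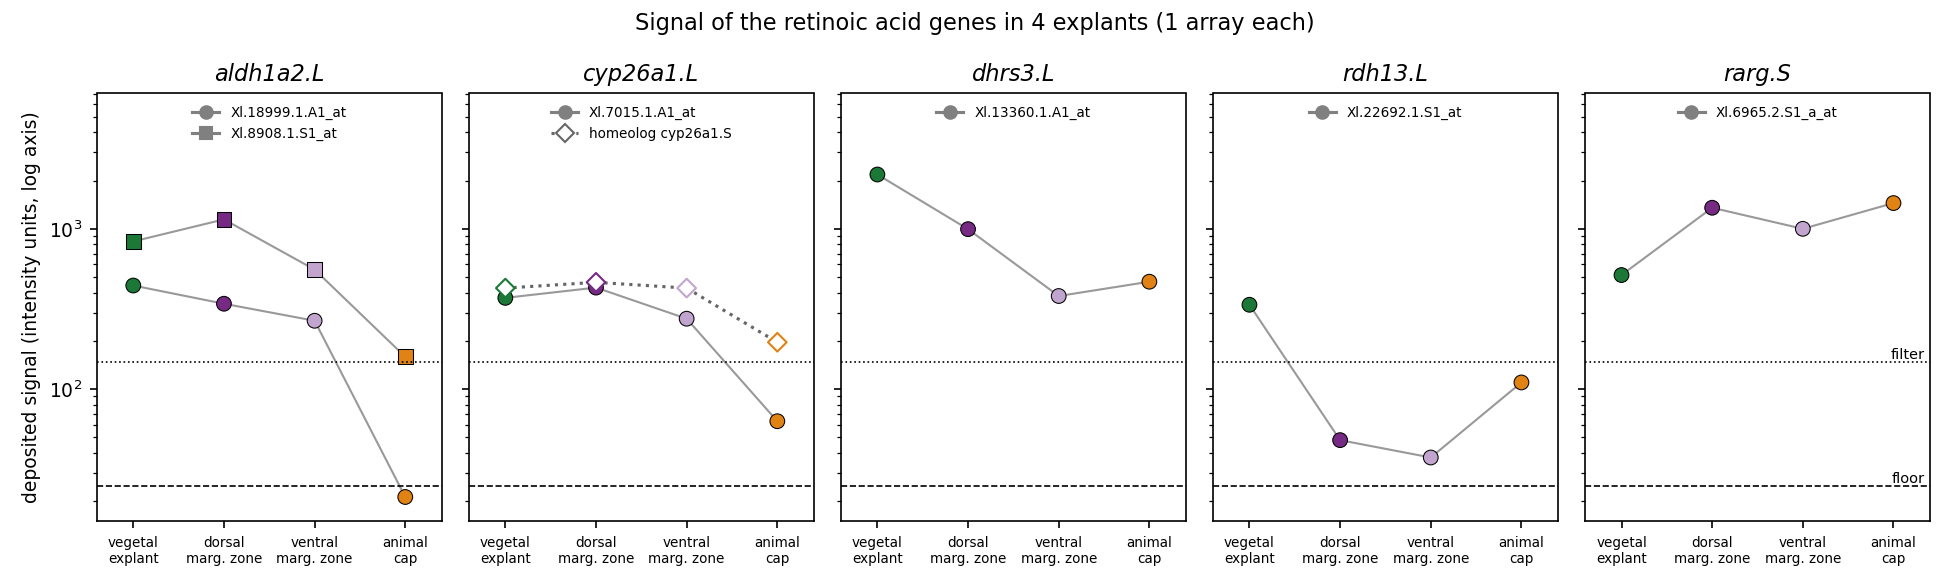
Deposited signal (intensity units, log axis) of each probe set of the 5 genes in the vegetal explant, dorsal marginal zone, ventral marginal zone and animal cap, 1 array each; the dashed line is the floor of 24.7 and the dotted line the filter of 147. Lines join values of 1 probe set and imply no order of time or dose. aldh1a2.L and cyp26a1.L drop in the animal cap, dhrs3.L and rdh13.L stand highest in the vegetal explant, and rarg.S is lowest there.

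The retinaldehyde reductase genes dhrs3.L and rdh13.L both had their highest signal in the vegetal explant. dhrs3.L, whose product returns retinaldehyde to retinol and so limits retinoic acid, had a signal of 2185 in the vegetal explant, 996 in the dorsal marginal zone, 381 in the ventral marginal zone and 468 in the animal cap. The vegetal signal was 2.19-fold above the dorsal, 5.74-fold above the ventral and 4.67-fold above the cap signal. The dorsal marginal zone was in turn 2.61-fold above the ventral marginal zone and 2.13-fold above the cap. Ventral marginal zone and cap differed by -0.30 on the log2 scale, the ventral piece being lower.

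The dorsal excess of dhrs3.L, 1.39 on the log2 scale, was 7.2 times the scatter between the marginal zone arrays at its brightness. That brightness, a mean of 1010, includes the vegetal signal of 2185. Of 4649 genes compared, 43 including dhrs3.L were at least as far on the dorsal side. The 2-fold rule put 1.33% of genes on the dorsal side and 1.16% on the ventral side in this comparison, and of the 4 members that entered it 1, dhrs3.L, was past the rule on its gene value. aldh1a2.L and cyp26a1.L also had dorsal values above ventral ones, at 1.62-fold and 1.56-fold, without reaching the rule, and rarg.S was 1.35-fold higher dorsally. rdh13.L did not enter this comparison. The summed dorsal marker signal was 15510 dorsally and 391 ventrally, and its part in these differences was not tested.

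rdh13.L encodes a short-chain dehydrogenase that in humans is a mitochondrial enzyme able to reduce retinaldehyde. Its signal was 336 in the vegetal explant, 48.0 in the dorsal marginal zone, 37.4 in the ventral marginal zone and 110 in the animal cap. Only the vegetal signal reached the filter of 147. It was 7.0-fold above the dorsal, 8.97-fold above the ventral and 3.06-fold above the cap signal. With 50 added to each signal in place of the floor, the first 2 of these values became 3.94-fold and 4.41-fold. The dorsal and ventral values, both above the floor and below the filter, give no comparison by the rule used, and the same holds for each of them against the cap. Both reductases therefore had their highest signal vegetally, and no order is given among the other explants for rdh13.L. The summed vegetal marker signal was also highest there, at 29040 in the vegetal explant, 5359 dorsally, 4769 ventrally and 157.2 in the animal cap, and its part in the vegetal excess of dhrs3.L and rdh13.L was not tested.

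The receptor gene rarg.S was the only member with a higher signal in the animal cap than in the vegetal explant. RAR gamma is one of the nuclear receptors that bind retinoic acid, and in frog embryos it is known as a repressor of target genes when no ligand is bound. Its signal was 515 in the vegetal explant, 1355 in the dorsal marginal zone, 1001 in the ventral marginal zone and 1449 in the animal cap. The vegetal explant was the lowest of the pieces, with log2 differences of -1.49 against the cap (2.81-fold), -1.39 against the dorsal (2.63-fold) and -0.96 against the ventral marginal zone (1.94-fold, just short of the rule). Dorsal marginal zone and cap were close, at -0.10, and the ventral marginal zone was 1.45-fold below the cap. The log2 dorsal minus ventral value of 0.44 was 2.3 times the scatter at its brightness. The animal cap markers were likewise low in the vegetal explant, with a sum of 201.7 there against 45200 in the cap, and their part in the rarg.S difference was not tested.

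**Figure D2:**
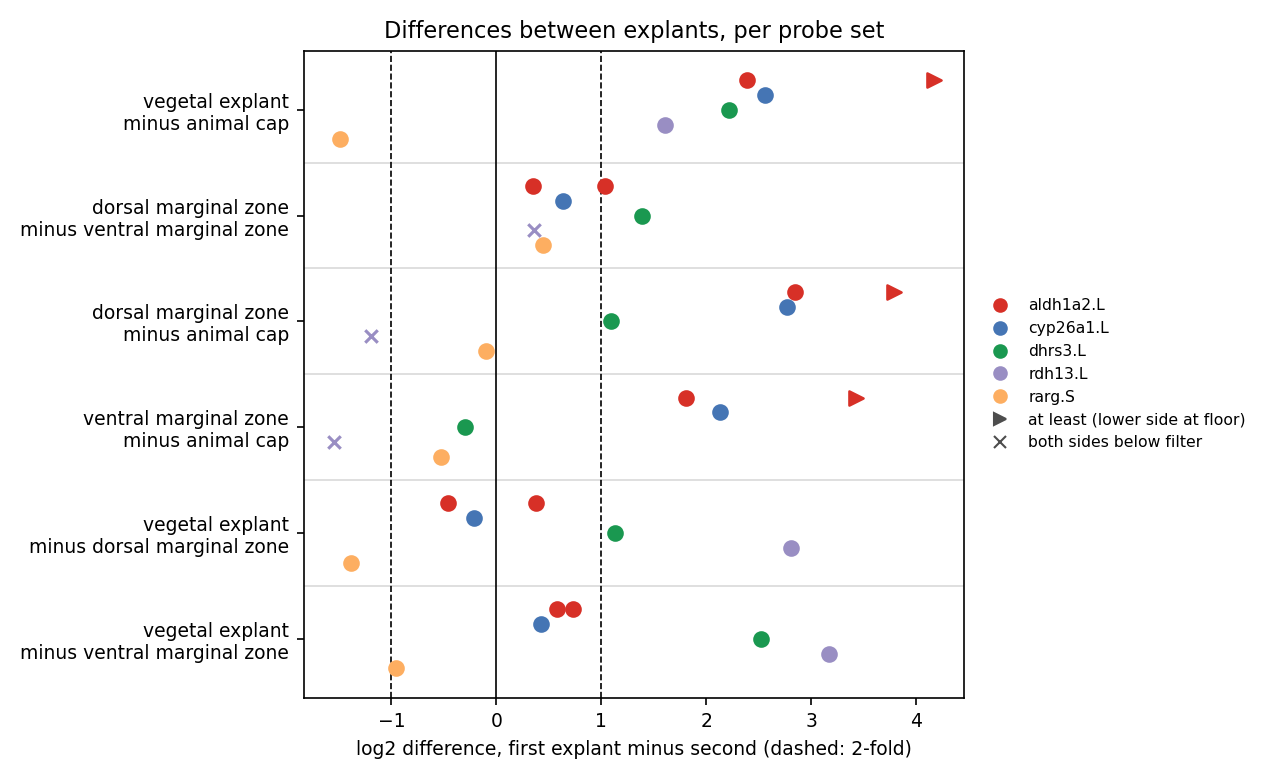
Log2 difference between explants (horizontal axis, first explant minus second) for each probe set of the 5 genes in the 6 pairs of explants (rows); dashed lines mark 2-fold. Triangles are lower bounds with the lower side at the floor and crosses are pairs with both signals below the filter. In the top row 5 probe sets lie to the right of 2-fold and rarg.S lies to the left at -1.49.

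Set side by side, the vegetal explant and the animal cap differed 2-fold or more in all 5 genes, 4 of them higher vegetally and rarg.S higher in the cap. The rule put 10.8% of 4892 genes on the vegetal side of this comparison and 7.28% on the cap side. The genes had been picked with these values known, so the count is a description. Among all genes, 83 including aldh1a2.L had a vegetal excess at least as large as its gene mean of 3.28 on the log2 scale, itself a lower bound. The corresponding number was 122 for cyp26a1.L, 154 for dhrs3.L and 252 for rdh13.L. On the cap side, 181 genes including rarg.S had an excess at least as large as its own. The place of aldh1a2.L rests on its dimmer probe set, which lay under the floor in the cap. Its brighter probe set alone gave 2.39, against 2.56 for cyp26a1.L.

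The remaining pairs share arrays with this one and are not separate evidence. Against the cap, the dorsal marginal zone was 2-fold or more higher in aldh1a2.L, cyp26a1.L and dhrs3.L, where 3.46% of all genes lay on the dorsal side and 2.04% on the cap side. The ventral marginal zone was higher than the cap in aldh1a2.L and cyp26a1.L, with 3.1% of all genes on the ventral and 1.06% on the cap side. Against the dorsal marginal zone, the vegetal explant was higher in dhrs3.L and rdh13.L and lower in rarg.S, where 8.71% and 6.2% of all genes were called on the vegetal and the dorsal side. Against the ventral marginal zone, it was higher in dhrs3.L and rdh13.L, with 8.52% of all genes on the vegetal and 6.47% on the ventral side.

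Over the 4 explants the members fell into joint patterns, which were defined after the values had been seen. aldh1a2.L and cyp26a1.L were 2-fold or more lower in the cap than in each other explant, as was cyp26a1.S, with the filter applied in each pair. In all, 86 of the 4989 genes that reached the filter in some explant had this pattern (1.72%). dhrs3.L and rdh13.L were 2-fold or more higher in the vegetal explant than in each other one, as were 260 genes (5.21%). No member was 2-fold or more lower in the vegetal explant than in each other explant, a pattern that 188 genes (3.77%) had. The span from the highest to the lowest explant was at least 3.32 on the log2 scale for aldh1a2.L (2.85 on its brighter probe set), 2.77 for cyp26a1.L, 2.52 for dhrs3.L, 3.17 for rdh13.L and 1.49 for rarg.S, against a median span of 0.58 over all genes.

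Likeness of distribution was measured as the root mean square distance between log2 profiles over the 4 explants, after each gene's own mean was subtracted. It is a description over 4 points that share their arrays. aldh1a2.L and cyp26a1.L lay 0.27 apart, which made cyp26a1.L the gene ranked 5 in nearness to aldh1a2.L among 4988, and aldh1a2.L the gene ranked 7 from cyp26a1.L. dhrs3.L and rdh13.L were 0.85 apart, dhrs3.L and cyp26a1.L 0.99, and dhrs3.L and aldh1a2.L 1.11. The 2 reductases were thus not near neighbours: rdh13.L ranked 1102 from dhrs3.L, and dhrs3.L ranked 215 from rdh13.L. rarg.S was 1.47 to 1.75 from each of the others, and rdh13.L was 1.71 from cyp26a1.L and 1.85 from aldh1a2.L, the widest gap among the members. Distances from aldh1a2.L depend on the floor, since 1 of its probe sets lay under it in the cap. Distances from rdh13.L rest on signals below the filter in every explant but the vegetal one.

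The genes nearest to aldh1a2.L were vcan.L, which encodes the matrix proteoglycan versican (distance 0.14), apobec2.L of the APOBEC deaminase family (0.15) and the potassium channel gene kcnk6.L (0.24). vcan.L had 291, 243, 145 and 27.7 in the vegetal, dorsal, ventral and cap pieces. Nearest to cyp26a1.L were kcnk6.L (0.17), apobec2.L (0.20) and lhx1.L (0.20), a LIM homeobox gene of the organizer. The cap signals of apobec2.L and lhx1.L were at the floor, so their distances depend on it.

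For dhrs3.L the nearest gene was nr2f1.L (0.20), an orphan nuclear receptor gene. Its signals were 205, 108, 49.8 and 42.9 in the vegetal, dorsal, ventral and cap pieces. The integrin-linked kinase gene ilk.S and the somatostatin gene sst.1.L followed (0.23 each). These genes were all below the filter outside the vegetal explant, so their distances rest on low signals. rdh13.L had no neighbour as close: coq6.L, which encodes an enzyme of ubiquinone synthesis, lay 0.36 away, the cyclin gene ccnb1.S 0.38 and fblim1.S 0.48. The coq6.L signals were 593, 66.4, 70.2 and 109 in the same order. rarg.S had the closest neighbours, with the histone variant gene h2ax.lS and the splicing factor gene srsf7.L both 0.06 away and sinhcaf.L, a subunit gene of the Sin3 histone deacetylase complex, 0.11 away. Distances were not scaled for span, which was smallest for rarg.S (1.49, against 3.17 for rdh13.L). They therefore do not rank the members by how alike their neighbours are. srsf7.L had 1368, 3818, 2890 and 3746.

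The rest of the pathway was taken from a list of 70 gene names ordered by role and written without the copy suffix. The array held 45 genes of this list with 49 probe sets. The .L and .S copies are counted apart in the 45, so this is not the number of names covered. Of these 45 genes, 14 (31.1%) reached the filter in some explant, against 4989 of 7531 genes (66.2%) over the whole array. The 5 genes described above are among them, and the other 9 were rdh10.L, rdh10.S, adh5.L, cyp26a1.S, rxrg.L, ncor1.S, crebbp.L, meis3.S and lhx1.L.

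Retinol oxidation was represented by both copies of rdh10, the main retinol dehydrogenase of vertebrate embryos. rdh10.L had 2005 in the vegetal explant, 1940 in the dorsal marginal zone, 1580 in the ventral marginal zone and 1186 in the animal cap. rdh10.S gave 425 in the vegetal explant, 761 dorsally, 832 ventrally and 609 in the cap. The vegetal minus cap values were 0.76 for rdh10.L and -0.52 for rdh10.S on the log2 scale, neither of which reached 2-fold. In both copies the marginal zones were above the cap, by 0.71 and 0.32 dorsally and by 0.41 and 0.45 ventrally for rdh10.L and rdh10.S. The cap was lowest for rdh10.L, 1.69-fold under the vegetal explant, and the vegetal explant was lowest for rdh10.S. The alcohol dehydrogenase gene adh5.L was 320 vegetally and between 173 and 185 elsewhere on 1 probe set, and at or under 17.2 on the other.

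The other retinaldehyde dehydrogenases measured gave no usable signal. The probe sets of aldh1a1.L and aldh1a1.S stayed under the floor in all 4 explants, with highest values of 20.6 and 23.3. Among the reductases, dhrs4.L was highest in the vegetal explant as dhrs3.L and rdh13.L were, but its values of 111, 73.6, 63.7 and 48.8 in the vegetal, dorsal, ventral and cap pieces were all below the filter. Of the other cyp26 genes, cyp26c1.S did not exceed 45.6. All 7 genes of retinoid storage, cleavage and transport, among them crabp2.L, rbp4.L and rbp4.S, were below the filter.

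Among receptors, the only RAR genes of the list with a probe set were rarg.S and rara.L, and rarg.S alone was above the filter. The probe set of rara.L had 23.9, 22.4, 24.4 and 2.72 in the vegetal, dorsal, ventral and cap pieces, all under the floor. Of the RXR partners only rxrg.L reached the filter, with 315 vegetally, 201 dorsally, 210 ventrally and 193 in the cap, a vegetal minus cap value of 0.71. rxrb.S was between 68.3 and 80.0 in all pieces. A low signal on this array gives no level for a transcript, since probe sets differ in how well they report their gene.

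The co-repressor gene ncor1.S, a partner of unliganded receptors, was lowest in the vegetal explant on both probe sets, as rarg.S was. They had 1319 and 669 in the vegetal explant, 1928 and 864 dorsally, 2098 and 836 ventrally, and 1981 and 816 in the cap. The mean vegetal minus cap value was -0.44, against -1.49 for rarg.S. Of 4892 genes, 1008 including ncor1.S had a cap excess at least as large as that of ncor1.S, against 181 for rarg.S. The co-activator gene crebbp.L had 343, 237, 299 and 452 in the vegetal, dorsal, ventral and cap pieces.

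**Figure D3:**
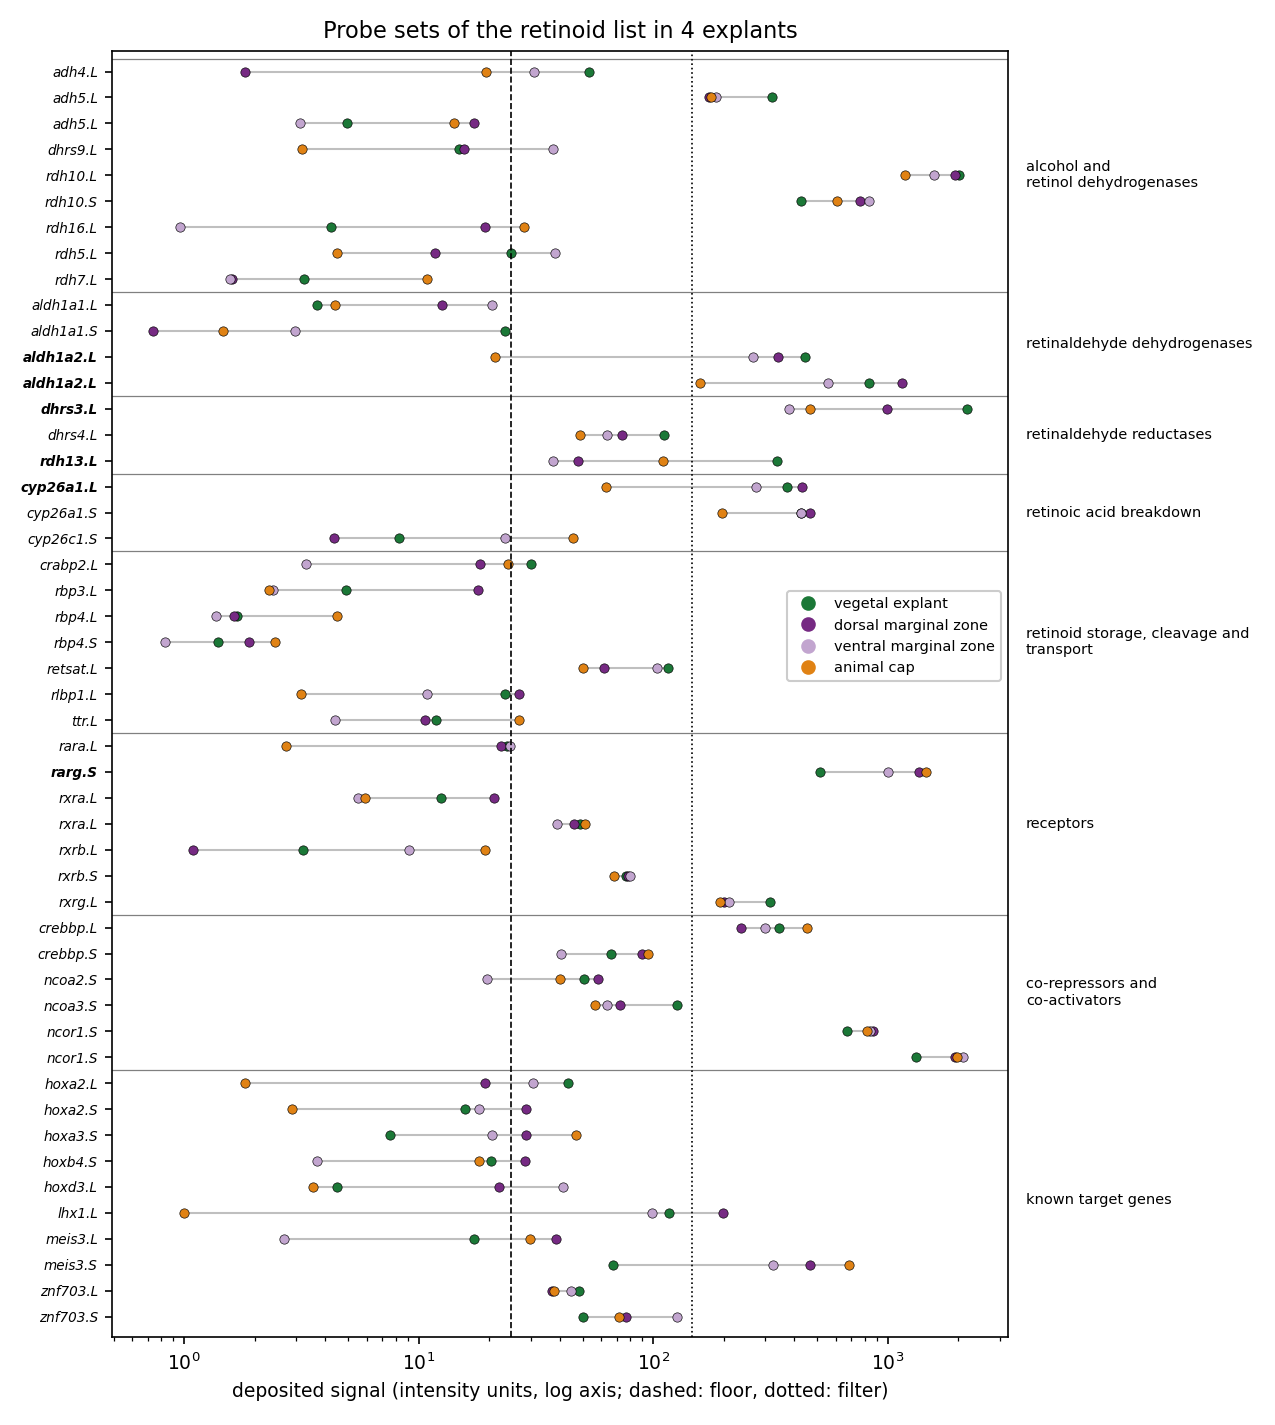
Deposited signal (horizontal log axis, intensity units) of the 49 probe sets of the retinoid list, grouped by role; points are the 4 explants and the names in bold are members. The dashed line marks the floor of 24.7 and the dotted line the filter of 147. Only 14 of 45 genes have a point at or right of the filter.

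Genes known to respond to retinoic acid mostly had low signals on these arrays. Of 10 target genes on the array, 8 stayed below the filter, including every hox gene measured (hoxa2.L, hoxa2.S, hoxa3.S, hoxb4.S and hoxd3.L). Over the whole list 31 of 45 genes stayed below it, while 66.2% of all genes on the array reached it. Here too a low signal gives no level for a transcript. meis3.S, a homeobox gene of the posterior neural plate, had 67.4 in the vegetal explant, 468 in the dorsal marginal zone, 325 in the ventral marginal zone and 686 in the animal cap. It was 10.2-fold lower in the vegetal explant than in the cap, and so lay on the same side as rarg.S. lhx1.L had 117 vegetally, 198 dorsally, 98.7 ventrally and a cap signal under the floor. Its dorsal signal was 2.01-fold above the ventral one, at the edge of the rule, and at least 8.03-fold above the cap.

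Counted over the list, 13 genes entered the vegetal against cap comparison. Of these, 5 were 2-fold or more higher vegetally and 2 in the cap. The rule put 10.8% of all genes on the vegetal side and 7.28% on the cap side. The list median was 0.76 on the log2 scale against 0.04 over all genes. Without the 5 members, 1 of 8 was higher vegetally (cyp26a1.S) and 1 in the cap (meis3.S), with a median of 0.15, so that the list's vegetal median came with the members. In the dorsal against ventral comparison, 2 of 13 lay past 2-fold on the dorsal side (dhrs3.L and lhx1.L). On the ventral side there were 0. The rule put 1.33% of all genes on the dorsal side and 1.16% on the ventral side. The list median was 0.30 against -0.01 over all genes. Leaving out the 4 members that entered gave 1 of 9 (lhx1.L) and a median of -0.04.

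**Figure D4:**
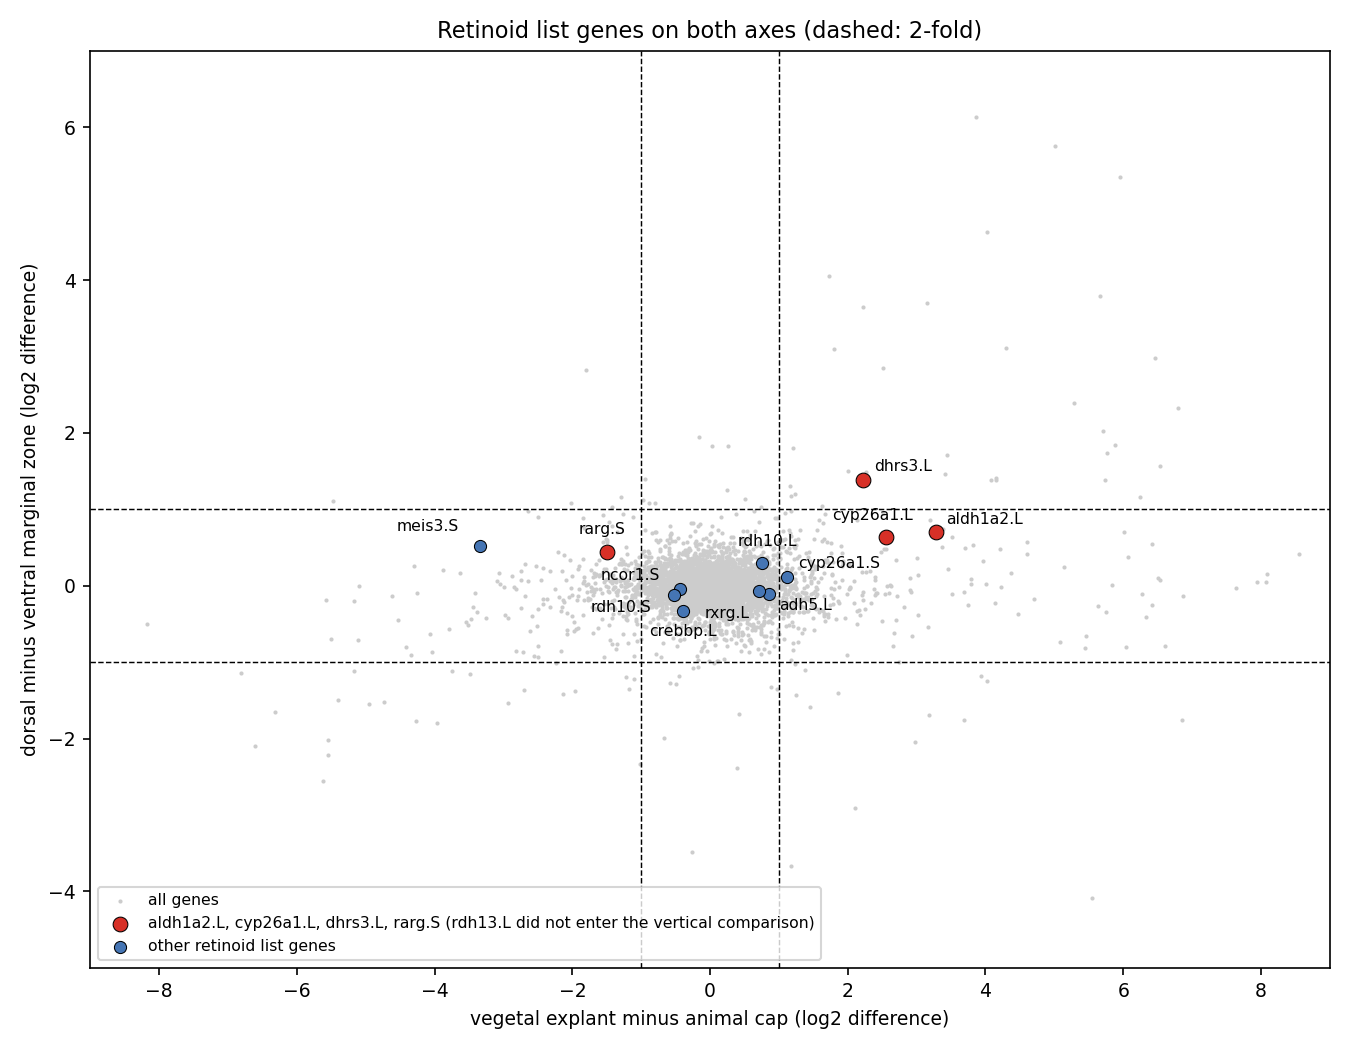
Log2 difference of the vegetal explant minus the animal cap (horizontal axis) against that of the dorsal minus the ventral marginal zone (vertical axis) for every gene that entered both comparisons (grey), with members in red and other retinoid list genes in blue; dashed lines mark 2-fold. dhrs3.L is the retinoid gene past 2-fold on both axes (2.22 and 1.39), and meis3.S and rarg.S lie on the cap side at -3.35 and -1.49; rdh13.L and lhx1.L entered only 1 of the comparisons and are not drawn.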

How the data were processed

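RNA from 4 explants of stage 10 Xenopus laevis embryos was hybridised to 1 expression array each, with biotin-labelled material made from 100 ng of total RNA, per the labels' protocols. The deposited values are linear intensities for 15611 probe sets, and the summarisation software is not given in the sources used here. Trimmed by 2% at both ends, the mean signal was 500.1 on each array, so the authors' intensities carry a scaling per array. Each sample was placed by its title.

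The comparisons between explants did not use the 120 control probe sets. The floor, the filter and the trimmed mean were computed with the controls included, and the alternative array scalings used controls too. Of the 15491 probe sets without the controls, 9304 had 1 symbol in the platform annotation, 195 had several and were not named, and 5992 had none listed. Values below the 20th percentile were raised to it (24.7), log2 was taken, and comparisons used probe sets whose higher explant reached the 50th percentile (147). A gene's value was the mean log2 over its probe sets that entered, and a fold against the floor is "at least". With 1 array per explant no test was run. The difference of a pair was tested on simulated data with known folds in bright probe sets. Folds of dim signals or against the floor, and the mean over probe sets, were not tested. The work used Python 3.11.15, numpy 2.4.6 and pandas 2.3.3.

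The members, the lists and the markers were chosen with earlier results of these data known. Genes named were the members, their homeologs, retinoid list genes past 2-fold on either axis and the 3 nearest genes per member; other list genes were named after their values were seen. Alternatives changed the floor, the array scaling, the filter, the probe set rule and the fold. No sequences are printed, and no coordinates are given because the sources used here name no genome build for its probes.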

Additional observations from a re-analysis of the deposited data

How the results depend on the processing

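For the 5 genes, 27 differences between explants were recomputed under 8 alternatives each. None changed sign after having passed 2-fold, and 200 of 216 values stayed on the same side of 2-fold and within 0.24 on the log2 scale, the robust SD between the marginal zone arrays. That count is no measure of stability, because many of the values had little or no room to move. Dropping the filter or making it stricter left every value as it was. The lower floor changed only the aldh1a2.L values against the cap. The brightest probe set rule can change only aldh1a2.L, the only member with several probe sets. Adding 50 to each signal in place of the floor shrank the vegetal minus cap values to 2.44 for aldh1a2.L, 1.90 for cyp26a1.L and 1.27 for rdh13.L, all still past 2-fold, and the vegetal minus dorsal and vegetal minus ventral values of rdh13.L to 1.98 and 2.14, which follows from the construction of that scale for low signals. Using the brightest probe set alone gave aldh1a2.L 2.39 for vegetal minus cap, and 1.04 for dorsal minus ventral, which crosses 2-fold. The vegetal minus ventral value of rarg.S passed 2-fold with each array centred on its median (-1.08) and with scaling to the hybridisation controls (-1.16). These scalings moved the median of all genes in that comparison to -0.08 and -0.17, against 0.05 as deposited. The other values that moved came from these same 4 settings. For dorsal minus ventral the control scaling moved it to -0.21, against -0.01.

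The count of retinoid list genes higher vegetally than in the cap was 5, and became 10 of 45 with no filter, 8 at 1.5-fold, and 4 with 50 added, with median centring and at 3-fold. The count higher in the cap was 2, and became 1 at 3-fold. The count higher dorsally than ventrally was 2, and became 1 with 50 added, with control scaling and with the stricter filter, 3 with the brightest probe set, 4 with no filter, 4 at 1.5-fold and 0 at 3-fold. The share of all genes called under each alternative is not given here. A looser or stricter rule can change that share too, so these counts are no result about the list. No paired analysis was possible because each explant has 1 array, and no replicate could be left out. Signals below the filter limit what can be said of rdh13.L in the marginal zones and of 31 of the 45 list genes.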
